A study of Mus musculus with 187 samples.

Results

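Tnni3k encodes TNNI3-interacting kinase, a protein kinase with ankyrin repeats that is made mainly in cardiac muscle and binds cardiac troponin I. It was followed as 1 gene of the 36558 in the deposited tables, by its Ensembl identifier ENSMUSG00000040086, in every heart library of the HMDP (Hybrid Mouse Diversity Panel), which brings together inbred and recombinant inbred strains of mice. The gene was chosen by name, but with earlier results of these data known, as were the gene lists used below. There were 98 libraries from males and 89 from females, and 78 strains had both sexes. All mice received chow for 8 weeks and for the next 8 weeks a diet high in fat and sucrose, and hearts were taken at 16 weeks of age, so no group had another diet or age. The strains were 45 BXD strains (derived from C57BL/6J and DBA/2J), 20 AXB/BXA strains (from A/J and C57BL/6J), 6 CXB strains (from a BALB/c and a C57BL/6 strain), 6 BXH strains (from C57BL/6J and C3H/HeJ) and 29 other inbred strains. The labels give a single mouse for each strain, although the male and the female libraries of a strain must come from different mice. They do not say whether repeated libraries of a strain and sex came from separate mice. The p-values of the strain, founder and sex tests therefore measure the spread between these libraries. Those of the association with other genes and of the agreement between sexes measure the spread between strains.

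The kinase belongs to the MAP kinase kinase kinases, which act upstream of the p38 and JNK kinases. In the heart it is known for effects on atrioventricular conduction, on the response to injury and pressure load, and on the number of nuclei and chromosome sets of cardiomyocytes. Rare human variants of the gene have been linked with conduction disease and dilated cardiomyopathy. Mouse strains differ in its transcript level, and the gene has been studied as a modifier of heart disease between them. The question asked here was how its level was distributed over the panel and which conduction, contractile and other genes varied with it.

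Total estimated counts ranged from 28990000 to 80440000 per library, and mitochondrial genes took 20.7% to 61.3% of them. Tnni3k had 286 to 7869 counts in a library, which gives a counting error of 5.91% at the lowest and 1.13% at the highest, before any spread between mice. Cardiomyocyte markers (Myh6, Tnnt2, Actc1, Ryr2, Pln, Tnni3 and Myl2) summed to 35929 to 76498 CPM (counts-per-million, taken over the genes kept for testing, with library sizes scaled by the trimmed mean method of edgeR), so the tissue label matched its defining genes in every library. A few libraries stood apart from the other sex of their strain over the 500 genes compared. The A/J male was closest to a mixture with 30% of the BXD45/RwwJ profile, which took 81.1% off its distance to the A/J female. The BALB/cJ female was closest to one with 20% of BXD19/TyJ, with a fall of 72.1%. BXD73/RwwJ and RIIIS/J had the largest distances between sexes. The A/J and BALB/cJ founder differences and the coefficients of Socs2 and Igfals are given with and without these libraries.

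The gene lies on chr3:154786291-155055407 of mouse build GRCm38, on the minus strand, and GENCODE M21 annotates 3 transcripts. Tnni3k-201 is protein coding, with 25 exons, 3034 bases and 2502 coding bases. Tnni3k-202 is annotated as subject to nonsense-mediated decay, a pathway that removes messages with an early stop codon, and has 23 exons and 2762 bases. Tnni3k-203 is a short retained-intron transcript of 5 exons and 738 bases from the 5′ end of the gene, with no annotated coding sequence. It shares 3 internal exons exactly with Tnni3k-201 and runs 250 bases past the end of the fifth exon of Tnni3k-201 into the intron. The sequences on both sides of that point are printed 5′ to 3′ on the transcript strand, as given in the M21 transcripts, because reads there differ between the short transcript and the full-length ones, a difference the level estimates below depend on. The first covers chr3:155030011-155030310, with the last 50 bases of the fifth exon in lower case and the 250 retained intron bases in capitals. The second joins the same 50 exon bases to the first 50 bases of the sixth exon, chr3:154979198-154979247, which are in capitals.
Tnni3k-203: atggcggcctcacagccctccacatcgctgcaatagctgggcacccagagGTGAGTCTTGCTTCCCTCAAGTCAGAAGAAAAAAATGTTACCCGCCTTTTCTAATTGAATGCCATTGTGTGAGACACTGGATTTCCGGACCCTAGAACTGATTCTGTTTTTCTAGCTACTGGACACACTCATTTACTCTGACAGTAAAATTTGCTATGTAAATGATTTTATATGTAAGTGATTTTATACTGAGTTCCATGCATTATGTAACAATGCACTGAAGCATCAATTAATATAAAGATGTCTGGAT
Tnni3k-201: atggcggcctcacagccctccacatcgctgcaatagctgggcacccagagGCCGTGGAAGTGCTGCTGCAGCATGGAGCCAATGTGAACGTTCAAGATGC

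The level of Tnni3k fell into a low and a high range with an empty interval between them. By the rule used for separation (a step of over 0.5 log2 CPM between neighbouring strains, with at least 6 strains on both sides), there was a single gap over the means of all strains. It ran from A/J at 33.4 CPM to LG/J at 68.3 CPM, a step of 1.03 log2, where both are means of log2 CPM (prior count of 2) turned back to CPM and so differ slightly from the plain means given further on. The 51 strains above it had 88 libraries with 53.8 to 120.5 CPM and a median of 88.5. The 55 strains below it had 99 libraries with 6.68 to 41.7 CPM and a median of 22.1. No library of a strain above the gap was as low as any library of a strain below it, and none of the 78 strains with both sexes had its male and female on different sides. Assigning each strain by whether its mean was nearer to C57BL/6J or to DBA/2J gave the same division, with 0 strains differing. The division describes the measured level, and no test was made between its sides.

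**Figure D1:**
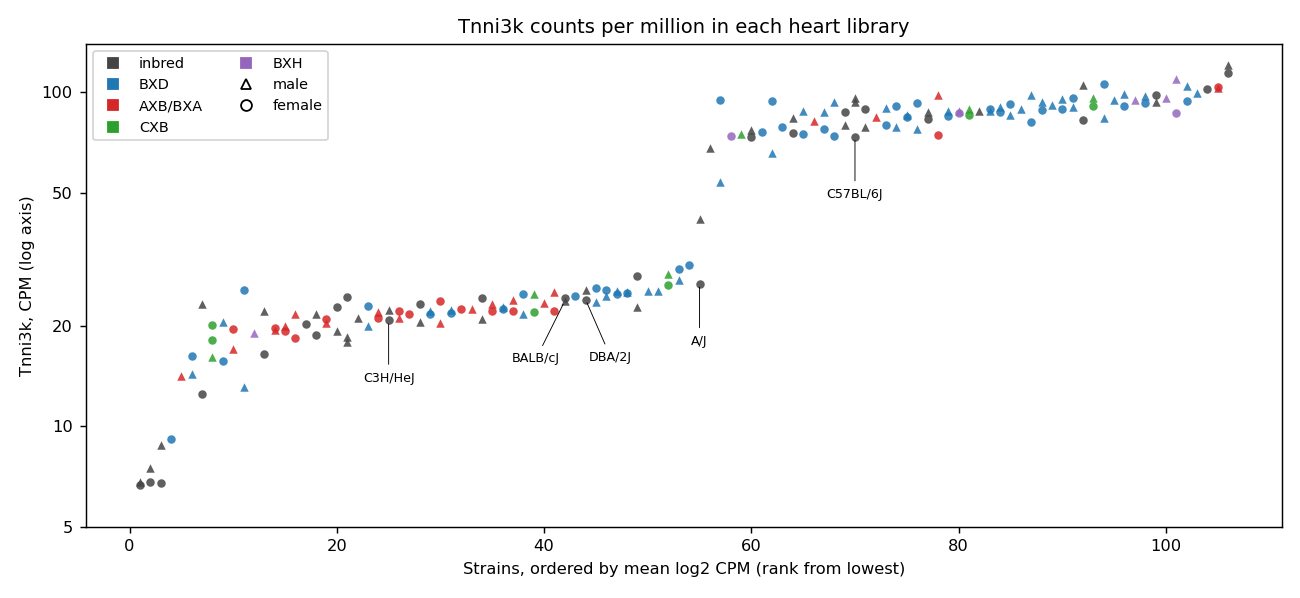
Tnni3k level in each library on a log axis in CPM, against the rank of the strain by mean log2 CPM, coloured by strain family, with triangles for males and circles for females. Libraries of the 55 lower strains end at 41.7 CPM and those of the 51 upper strains begin at 53.8 CPM.

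C57BL/6J, the common parent of most recombinant strains, was above the gap. Its males had 96.2 and 93.7 CPM and its female 73.5 CPM. DBA/2J, the other BXD parent, was below it, with 25.5 CPM in the male and 23.9 CPM in the female. A/J, the other AXB/BXA parent, had 41.7 CPM in the male and 26.7 CPM in the female. Neither strain overlapped C57BL/6J. BALB/cJ had 23.7 CPM in the male and 24.2 CPM in the female, and C3H/HeJ had 22.3 and 20.8 CPM, so that both were close to DBA/2J.

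The founder differences were tested with edgeR's quasi-likelihood test fitted to strain and sex in all libraries of the 78 strains that had a male and a female, with Benjamini-Hochberg adjustment over 15942 genes. Against C57BL/6J, Tnni3k fell by 1.83 log2 in DBA/2J (SE 0.18, edgeR adjusted p = 1.38e-13), a contrast in which 10% of genes were called and 4.79% were called lower. It fell by 1.37 in A/J (SE 0.18, edgeR adjusted p = 5.02e-09), where 7.86% of genes were called and 3.64% were called lower. In BALB/cJ it fell by 1.88 (SE 0.18, edgeR adjusted p = 7.12e-14), with 8.83% of genes called and 3.96% lower. In C3H/HeJ it fell by 2.03 (SE 0.19, edgeR adjusted p = 2.12e-15), with 9.19% called and 4.19% lower. Every library of these 4 strains was below every C57BL/6J library. By p, Tnni3k was number 73 of all genes tested in DBA/2J, 48 in BALB/cJ and 53 in C3H/HeJ, and it ranked behind these places in A/J. The A/J value was -1.72 without its male library, which stood apart, and -1.08 without its female, both still called. The BALB/cJ value was -1.91 without its female, which stood apart, and it was still called.

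Over all 78 strains, strain had an F of 65.1 for Tnni3k (edgeR adjusted p = 1.76e-50), number 39 of 15942 genes by p. Strain effects were widespread, with 72.3% of all genes called.

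The BXD strains, which descend from a high and a low parent, were on both sides. Of the 45 strains, 27 were above the gap with libraries of 53.8 to 105.7 CPM, and 18 were below it with 9.18 to 30.3 CPM. The lowest BXD strain was BXD51/RwwJ, with 9.18 CPM in its only library, followed by BXD19/TyJ at a mean of 15.3 and BXD1/TyJ at 18.1 CPM. The lower strains ended with BXD64/RwwJ at 28.4 and BXD27/TyJ at 30.3 CPM, which were above DBA/2J itself. Above the gap the means ran from BXD20/TyJ at 74.3 and BXD5/TyJ at 76.2 CPM to BXD86/RwwJ at 99.01 CPM, and to 99.1 CPM in the BXD24/TyJ strain that carries the Cep290 rd16 allele. The C57BL/6J mean of 84.2 CPM was inside that range.

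The AXB/BXA strains also have a high and a low parent, and 16 of the 20 were below the gap. Their lower libraries had 14.1 to 25.2 CPM, so that every one of them was under the lower of the A/J libraries. The lowest strain was AXB6/PgnJ, with 14.1 CPM in a single library, and the highest of the lower strains was AXB19/PgnJ at 23.6 CPM. Its substrains AXB19a/PgnJ and AXB19b/PgnJ had 20.01 and 18.3 CPM. The 4 strains above the gap were BXA12/PgnJ with 81.9, BXA13/PgnJ with 83.9, AXB15/PgnJ with 86.2 and BXA2/PgnJ with 103.4 CPM.

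The CXB strains divided evenly. CXB6/ByJ (17.6 CPM), CXB12/HiAJ (23.4) and CXB11/HiAJ (27.5) were low, and CXB7/ByJ (75.1), CXB13/HiAJ (87.3) and CXB4/ByJ (93.3) were high. Of the BXH strains, BXH20/KccJ alone was low, with 18.9985 CPM in its single male library. The other 5 had strain means from 74.05 CPM in BXH22/KccJ to 98.1 CPM in BXH6/TyJ.

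Among the 29 other inbred strains, 17 were below the gap and 12 above it. FVB/NJ had the lowest level of the panel, with 6.81 CPM in the male and 6.68 CPM in the female. SWR/J had 7.52 CPM in the male and 6.83 in the female, and SJL/J had 8.81 and 6.78. These 3 strains were separate from all others with both sexes, with a step of 0.98 log2 to the next of them, BXD19/TyJ, although the single library of BXD51/RwwJ was between. The remaining lower inbred strains were RIIIS/J, NON/ShiLtJ, BUB/BnJ, NOD/ShiLtJ, KK/HlJ, MA/MyJ, SEA/GnJ, C3H/HeJ, NZB/BlNJ, I/LnJ, BALB/cJ, DBA/2J, NZW/LacJ and A/J, with means of 17.9 to 34.2 CPM. Above the gap, LG/J (68.2 CPM), SM/J (75.3), BTBR T<+> tf/J (79.4), C57BLKS/J (83.3) and C58/J (83.8) were under the C57BL/6J mean. CBA/J (85.2), AKR/J (87.8), PL/J (93.7), 129X1/SvJ (95.6) and LP/J (102.1) were above it. CE/J was the highest of the panel, with 120.5 CPM in the male and 114.3 CPM in the female.

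Within a strain the male and female libraries were close. The SD of a single library around its strain was 0.19 log2, estimated from the male and female of the 78 strains, and the median difference between the sexes was 0.14 log2. The largest was 0.96 log2 in BXD9/TyJ, with 13.1 CPM in the male and 25.5 CPM in the female. BXD20/TyJ had 53.8 CPM in the male and 94.9 CPM in the female. Libraries of the same strain and sex were also close, with 20.2 and 18.1 CPM in the CXB6/ByJ females and 18.5 and 17.9 CPM in the MA/MyJ males. In the order of the 78 strains, only 4 of the 77 neighbouring pairs had libraries that did not overlap. These were FVB/NJ and SWR/J, SJL/J and BXD19/TyJ, A/J and BXD20/TyJ, and BXA2/PgnJ and CE/J. Of these 4 steps, only those from SJL/J to BXD19/TyJ (0.98 log2) and from A/J to BXD20/TyJ (1.10 log2) exceeded the SD of a single library. FVB/NJ and SWR/J differed by 0.09 and BXA2/PgnJ and CE/J by 0.18 log2, less than that SD. The libraries of the remaining neighbours overlapped.

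The strains below the gap varied more than those above it. The SD of strain means was 0.47 log2 below and 0.13 above, or 0.22 below without FVB/NJ, SWR/J and SJL/J, left out after their values were seen, and the single-library spread alone would give 0.14 for a mean of a male and a female. Among the 42 lower strains the male and female levels went together (Pearson r = 0.820, permutation p = 1e-05, the smallest that 100000 permutations can give; Spearman rho = 0.557, permutation p = 0.00019; adjusted over 14 values 0.00014 and 0.00133). Without FVB/NJ and SWR/J, the farthest from the male median, r was 0.636. Among the 36 upper strains no relation was found (r = 0.063, permutation p = 0.714, adjusted 0.769; rho = 0.020, permutation p = 0.909, adjusted 0.909), and r was 0.286 without BXD20/TyJ and BXD70/RwwJ. Within families, the 15 lower inbred strains had r = 0.878 (permutation p = 0.00068, adjusted 0.00317; rho = 0.543, permutation p = 0.0395, adjusted 0.138), or 0.725 without FVB/NJ and SWR/J. The 13 lower BXD strains had r = 0.461 (permutation p = 0.101, adjusted 0.202), or 0.728 without BXD9/TyJ and BXD19/TyJ. The 11 lower AXB/BXA strains had r = 0.4601 (permutation p = 0.153, adjusted 0.255), or 0.321 without AXB19b/PgnJ and AXB19/PgnJ. The 21 upper BXD strains had r = -0.28 (permutation p = 0.215, adjusted 0.301; rho = -0.26, permutation p = 0.254, adjusted 0.323), or -0.105 without BXD20/TyJ and BXD70/RwwJ. The 9 upper inbred strains had r = 0.601 and rho = 0.333, and r was 0.127 without CE/J and PL/J. The values of these 9 strains are given as a description. A correlation over all strains was not taken, since the strains form separate clusters.

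Sex made no detectable difference to Tnni3k. Males had 54.6 ± 35.4 CPM (SD, n = 98) and females 50.8 ± 33.9 CPM (SD, n = 89), a difference of 0.10 log2 (SE 0.15, edgeR quasi-likelihood test, adjusted p = 0.681), in a comparison in which 24.8% of genes were called. With strain as replicate block, over the 78 strains with both sexes, the difference was 0.02 log2 (SE 0.03, edgeR adjusted p = 0.697).

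The TPM values, which divide by transcript length as well as by library total, gave smaller differences between strains than the counts. C57BL/6J had 32.2 and 30.04 TPM in the males and 28.7 in the female. DBA/2J had 23.1 TPM in the male and 21.8 in the female, and A/J had 22.3 and 21.5 TPM. BALB/cJ had 18.6 and 16.7 TPM, and C3H/HeJ 17.7 and 18.3. Every library of the other founders was still below every C57BL/6J library, by less than in CPM. Mitochondrial genes, which count toward the TPM total, took 38.6% to 43.7% of the counts in C57BL/6J and 28.7% and 30.1% in DBA/2J, and their part in the TPM difference was not tested. With limma on log2(TPM + 1), the difference from C57BL/6J was -0.43 in DBA/2J (limma adjusted p = 0.239), -0.46 in A/J (limma adjusted p = 0.308), -0.76 in BALB/cJ (limma adjusted p = 0.0809) and -0.73 in C3H/HeJ (limma adjusted p = 0.0499). Over the panel, the lower strains had 3.62 to 23.1 TPM (median 15.1) and the upper strains 18.03 to 58.3 TPM (median 35.1). The 2 ranges, which were separate in CPM, overlapped in TPM, with 19 of 99 lower libraries above the lowest upper library and 4 of 88 upper libraries under the highest lower one.

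The count of a gene divided by its TPM follows the length of the transcripts that its reads were assigned to. This ratio was scaled within each library and set to bases with 604 genes that have a single annotated transcript, of which 98.7% came within 5% of their annotated length. The implied length of Tnni3k was 2861, 2869 and 2846 bases in the C57BL/6J libraries, between Tnni3k-202 and Tnni3k-201. It was 1520 and 1597 bases in the DBA/2J male and female, 1668 and 1647 in BALB/cJ, and 1628 and 1625 in C3H/HeJ, between the long transcripts and Tnni3k-203. In A/J it was 1647 bases in the female and 2309 in the male that stood apart. The founder strains with low counts therefore also had reads assigned to shorter transcripts.

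**Figure D2:**
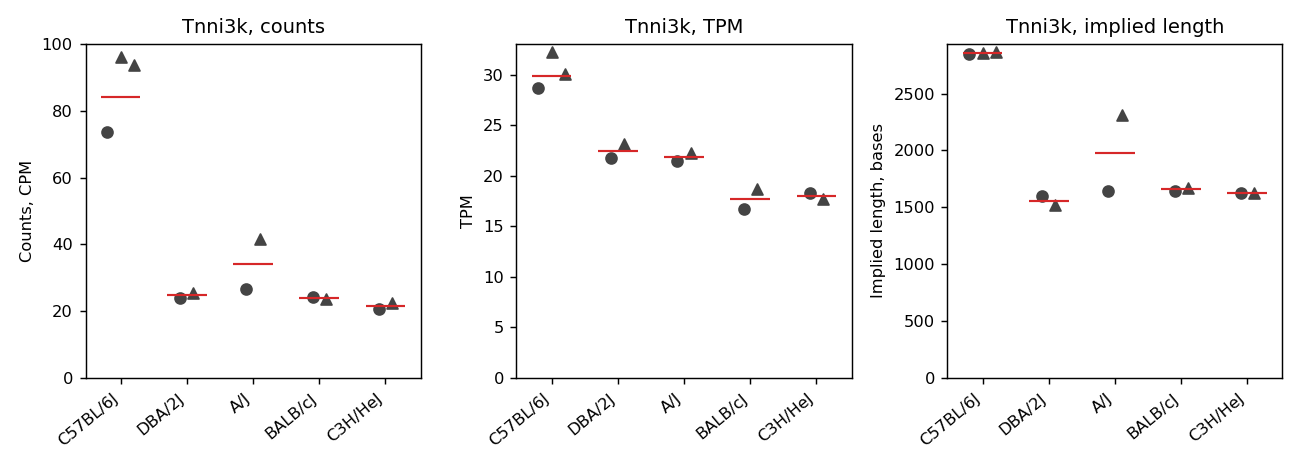
Tnni3k in the founder strains, as CPM, TPM and implied length in bases, with triangles for male and circles for female libraries and a red line at the mean of the male and female values. C57BL/6J is above the other 4 strains in each panel, at 2846 to 2869 bases against 1520 to 2309 bases in implied length.

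Such a difference in implied length was uncommon among genes. Over 9090 genes, the median size of the difference from C57BL/6J was 0.04 log2 in DBA/2J, while Tnni3k had -0.94, the 11th by size, and 0.473% of genes were past 0.5. In A/J Tnni3k had -0.59 and was the 27th, in BALB/cJ -0.84 and the 6th, and in C3H/HeJ -0.87 and the 9th. These are ranks within a description, with no test.

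Implied length divided the whole panel as the counts did. The 88 upper libraries had 2537 to 2941 bases (median 2841), and 82 of them were longer than Tnni3k-202. The 99 lower libraries had 1477 to 2309 bases (median 1692), and none reached the length of Tnni3k-202. Leaving out the A/J male and the RIIIS/J libraries, the lower libraries ended at 1914 bases. RIIIS/J had 2155 bases in the female and 2021 in the male, at 12.5 and 23.2 CPM. The BXD20/TyJ male, the lowest of the upper libraries at 53.8 CPM, had the shortest implied length among them at 2537 bases, against 2847 in its female. The A/J male and the BXD20/TyJ male were thus between the clusters in both measures. The BXD20/TyJ male was closest to a mixture with 10% of the BXA11/PgnJ profile. This took 26.9% off its distance to the female, against the fall of 81.1% in the A/J male. The part of a mixed profile in the levels of these 2 males was not tested.

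**Figure D3:**
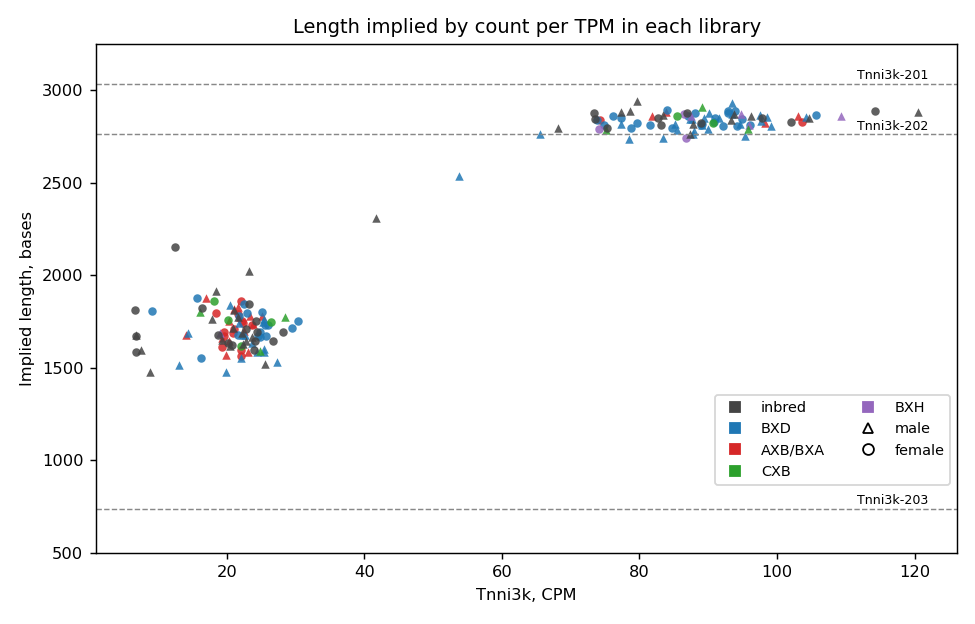
Implied transcript length of Tnni3k in bases against its CPM in each library, coloured by strain family, with dashed lines at the lengths of the 3 annotated transcripts. Upper libraries lie between 2537 and 2941 bases and lower libraries between 1477 and 2309 bases.

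The implied length can be turned into a share of Tnni3k-203 among Tnni3k transcripts if every other read is placed on 1 of the long transcripts. The DBA/2J libraries gave 57.6% and 61.4% if the long transcript was Tnni3k-202, and 62.6% and 65.9% if it was Tnni3k-201. The C57BL/6J libraries gave 7.19% to 8.20% with Tnni3k-201, and with Tnni3k-202 values under 0 (-5.28% to -4.14%), since their implied length was above that of Tnni3k-202. Over the upper libraries the median share with Tnni3k-201 was 8.39%, or -3.92% with Tnni3k-202, so that whether they held any Tnni3k-203 depends on the long transcript assumed. Over the lower libraries the median was 58.4%, or 52.9% with Tnni3k-202. On the TPM scale, and with Tnni3k-201 as the long transcript, the strain means of the long part were 17.1 to 49.1 TPM (median 31.2) above the gap and 2.13 to 11.9 TPM (median 6.40) below it. The short part had 1.77 to 4.31 TPM (median 2.81) above and 2.44 to 14.4 TPM (median 8.65) below. With this assumption, the full-length part was lower in every strain below the gap than in every strain above it, and the short part overlapped. These shares are arithmetic on gene-level values, since the transcript estimates were summed before deposit, and reads of an unannotated form would be placed on the annotated ones. The study's methods name another Ensembl release than that of GENCODE M21, so the transcripts behind the deposited values may differ from those used here for lengths and shares.

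The relation of Tnni3k to other genes was taken over strains, with the counts of each of the 78 strains summed over its libraries, the strain's mean log2 CPM of Tnni3k as predictor and strain family as a covariate. A coefficient is the log2 change of a gene per log2 unit of Tnni3k. Of 15941 other genes, 74 passed edgeR's quasi-likelihood test at an adjusted p under 0.05 (0.464%), 61 with a positive coefficient (0.383%) and 13 with a negative one (0.0816%). Among them, 2 identifiers had the same counts as another called one in every library, so 72 genes remain when each is counted once. Since Tnni3k had a low and a high range, these coefficients mostly compare strains of one range with those of the other. Strains of a family share founder haplotypes, so genes near each other on a chromosome and unlinked genes that differ between the same strains cannot be told apart from genes that vary with Tnni3k itself.

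Socs2, a suppressor of cytokine signalling that limits the response to growth hormone, had the smallest p, with a coefficient of 0.38 (SE 0.03, edgeR adjusted p = 2.16e-15) and a Spearman rho of 0.70 over strains. It had 23.8 and 21.3 CPM in the C57BL/6J males and 33.9 in the female, against 15.1 and 17.6 CPM in the DBA/2J male and female. In A/J it had 19.8 CPM in the male that stood apart and 11.5 CPM in the female. Igfals, which encodes the acid-labile subunit that carries insulin-like growth factors in blood, had 0.69 (SE 0.07, edgeR adjusted p = 9.6e-11), with 3.04, 4.04 and 3.25 CPM in the C57BL/6J libraries and 1.12 and 1.84 CPM in those of DBA/2J. For Socs2 the relation also held between different mice, with 0.37 for the male Tnni3k level against female counts and 0.40 for the reverse. Igfals gave 0.59 and 0.82 in the same fits. Leaving out the 4 libraries that stood apart gave 0.38 for Socs2 and 0.70 for Igfals.

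By Spearman correlation of strain means, the genes most like Tnni3k among those with at least 1 CPM were Prepl (rho 0.74), Chd6 (0.72), Igfals (0.71), Socs2 (0.70), Akt1 (0.69), Abhd18 (0.69), 6430571L13Rik (0.67), Klhdc8a (0.67) and, with opposite sign, Cryz (-0.65), over 78 strains. The identifier ENSMUSG00000115963 had the same counts as Abhd18 in every library, so these are 1 measurement. The strains share founders and fall into separate clusters, so these values are a measure of likeness only. Prepl, a serine peptidase, had a coefficient of 0.23, with 95.5, 79.7 and 67.6 CPM in C57BL/6J and 42.7 and 57.04 CPM in DBA/2J. Chd6, a chromatin remodeller, had 0.23, and Akt1, a kinase of insulin and growth factor signalling, had 0.13. In both genes the founders overlapped, with 45.03 to 79.1 CPM for Chd6 in C57BL/6J and 33.9 and 49.9 CPM in DBA/2J, and with 108.5 to 115.7 CPM for Akt1 in C57BL/6J and 99.1 and 110.7 CPM in DBA/2J. Prepl, Chd6 and Akt1 each passed the edgeR test, with adjusted p = 1.15e-10, 6.49e-10 and 2.73e-09.

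**Figure D4:**
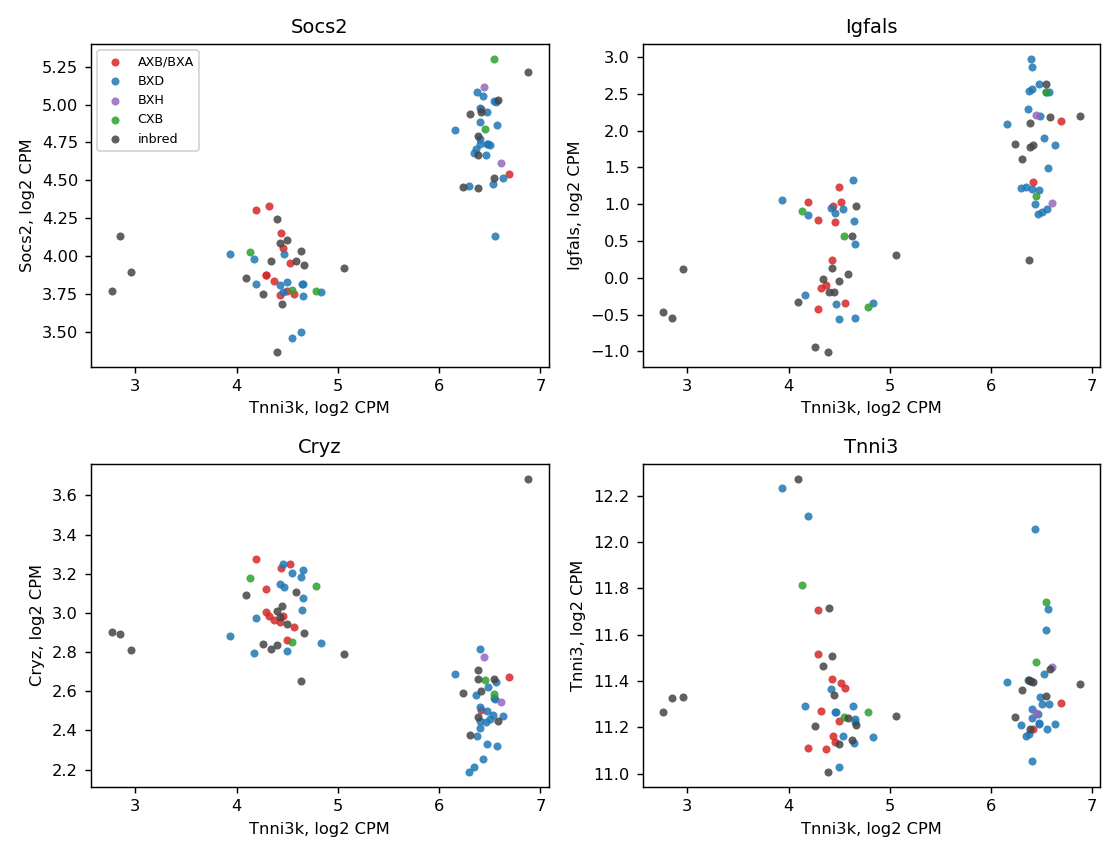
Strain means of Socs2, Igfals, Cryz and Tnni3 against those of Tnni3k over the 78 strains with both sexes, both axes in log2 CPM, coloured by strain family. Socs2, Igfals and Cryz had coefficients of 0.38, 0.69 and -0.16, and Tnni3 had -0.03 and was not called.

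Within the clusters the relations of Socs2 and Igfals were not called. Over the 36 strains nearer to C57BL/6J the Socs2 coefficient was 0.26 (95% interval -0.37 to 0.89, edgeR adjusted p = 0.881), where Tnni3k varied too little to set it apart from 0.38. Over the 42 strains nearer to DBA/2J it was -0.06 (95% interval -0.20 to 0.08, edgeR adjusted p = 0.763), an interval that excludes the value over all strains. Igfals had 0.63 (-1.15 to 2.41) and 0.14 (-0.27 to 0.56). Of the 74 called genes, 1 was called in each of the clusters, and 58 and 61 had the same sign there as over all strains. The strains of both clusters were among those from which the 74 genes were called.

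Of the conduction and ion channel genes, 1 of the 43 tested was called, where 0.464% of all genes were. The list was spread around 0, with a median coefficient of 0.01 against -0.00 over all genes. Connexin genes of the working myocardium and the conduction system had 0.00 for Gja1 (95% interval -0.03 to 0.04) and -0.03 for Gja5 (-0.14 to 0.08). Among those not called, the smallest p belonged to Scn10a, a neuronal sodium channel associated with conduction, at -0.19 (edgeR adjusted p = 0.0699), Kcna4, a transient outward potassium channel, at 0.18 (edgeR adjusted p = 0.079), and Kcne1, a potassium channel subunit, at 0.35 (edgeR adjusted p = 0.0852). These 3 missed the threshold, although DESeq2 called each of them. Of the list, 7 genes had an unadjusted p under 0.05, against 1522 of all 15941 genes.

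Of 38 contractile genes, 0 were called by edgeR, 1 had an unadjusted p under 0.05, and DESeq2 also called 0. With 0.464% of all genes called, such a count is near the background. The median coefficient was -0.01. Tnni3, the troponin I that the kinase binds, had -0.03 (95% interval -0.10 to 0.03, edgeR adjusted p = 0.789). Tnnt2, cardiac troponin T, had -0.04 (-0.10 to 0.02), and Tnnc1, troponin C, had -0.06 (-0.13 to 0.00). Myh6, the main myosin heavy chain of the adult mouse heart, had 0.01 (-0.03 to 0.05), and Myh7, the slow form, had -0.13 (-0.39 to 0.13). The intervals of Tnni3, Tnnt2 and Myh6 stayed within 0.1 of 0 on either side, that of Myh7 did not.

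**Figure D5:**
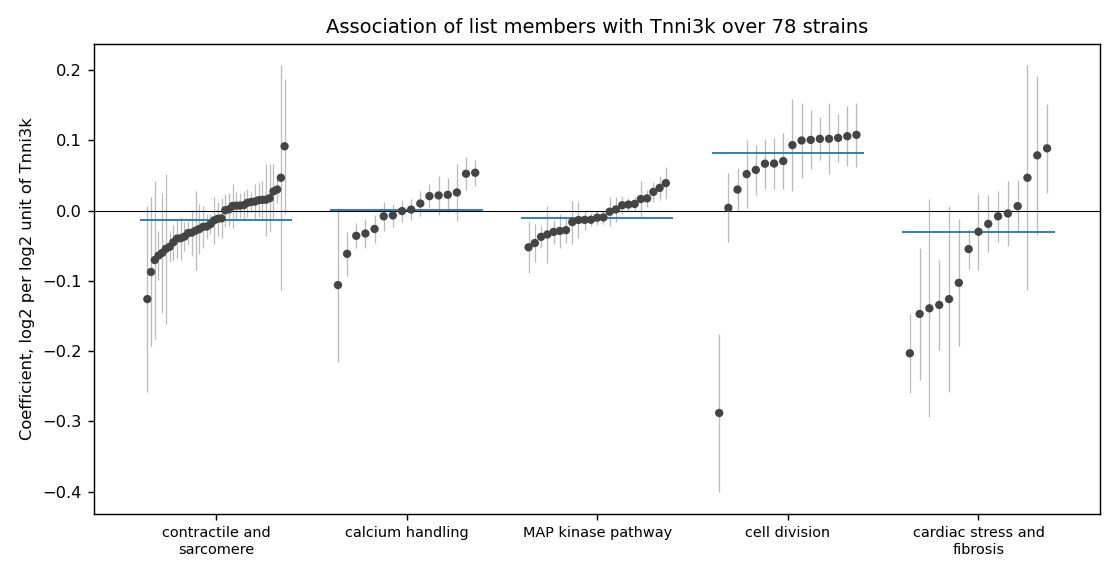
Coefficients of the members of 5 gene lists on Tnni3k over the 78 strains (log2 per log2 unit of Tnni3k), with grey bars for 1 SE and blue lines for the list medians. None of the members shown was called by edgeR, and the medians of these lists lie between -0.03 and 0.08.

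The other lists held no called gene, again with 0.464% of all genes called and 1522 of 15941 at an unadjusted p under 0.05. Among the 16 calcium handling genes, 3 had an unadjusted p under 0.05, and Casq2, the calcium store of the sarcoplasmic reticulum, was highest at 0.05 (edgeR adjusted p = 0.239). Among 23 MAP kinase pathway genes, 1 had an unadjusted p under 0.05. Mapk14, the p38 kinase that the pathway of Tnni3k feeds into, had 0.03 (95% interval -0.00 to 0.05, edgeR adjusted p = 0.537). Among 16 cell division genes the median was 0.08 and 7 had an unadjusted p under 0.05, with Aurka, a mitotic kinase, at 0.10 (edgeR adjusted p = 0.123) and Mki67 at 0.11 (edgeR adjusted p = 0.375). Cenpf, a kinetochore protein, had the opposite sign and the largest coefficient of that list in size, at -0.29 (edgeR adjusted p = 0.348). Among 15 cardiac stress and fibrosis genes, 2 had an unadjusted p under 0.05. Nppa and Nppb, the natriuretic peptides, had -0.10 (edgeR adjusted p = 0.74) and -0.15 (edgeR adjusted p = 0.63), and Ccn2, a fibrosis mediator, had -0.20 (edgeR adjusted p = 0.0799). DESeq2 called 1 of the genes of these 4 lists, Ccn2.

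Of the genes within 500 kb of Tnni3k, Tyw3 and Cryz were called by edgeR. Neither was called by limma on log2(TPM + 1) or log2(TPM + 0.1). Both lie past its 3′ end, Tyw3 at chr3:154576431-154597104 and Cryz at chr3:154596711-154623182, and they overlap each other, so that reads of the overlap cannot be assigned with certainty. Tyw3, which modifies a transfer RNA, had 0.15 (SE 0.02, edgeR adjusted p = 4.89e-07), with 3.54, 3.56 and 5.07 CPM in C57BL/6J and 2.95 and 3.10 CPM in DBA/2J. Cryz, a quinone reductase, had -0.16 (SE 0.03, edgeR adjusted p = 1.76e-05), and -0.20 (edgeR adjusted p = 3.4e-12) without CE/J, which had the highest Cryz level of the 78 strains. Cryz had 6.18, 6.57 and 6.70 CPM in C57BL/6J and 5.87 and 6.63 CPM in DBA/2J, so these founders overlapped and did not show the negative relation. BALB/cJ had 8.08 and 9.11 CPM and C3H/HeJ 7.53 and 8.16 CPM, above C57BL/6J, while A/J overlapped it with 6.58 and 7.19 CPM. In the BXD strains alone Cryz was called by edgeR, with negative sign. Fpgt, the gene next to the start of Tnni3k, had 0.02 (95% interval -0.00 to 0.04, edgeR adjusted p = 0.589). Lrriq3 and Erich3 were not called either, with -0.05 and -0.01. Lhx8, Scp2-ps1 and Gm5285 were not tested, with 59, 14 and 0 counts over all libraries.

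Chromosome 3 held 8 of the 74 called genes (1.07% of the 749 tested there, against 0.464% of all genes). Chromosomes 16, 13 and 9 had similar shares, at 1.05%, 1% and 0.878%. The rest were on 19 other chromosomes or, for 3 identifiers, had no position in the annotation. The chromosome 3 genes included Abhd18 and 1700034I23Rik at chr3:40846970-40938138 and chr3:40900196-40902543, far from Tnni3k. Other called genes were Cish (0.22, edgeR adjusted p = 1.76e-05), a target of STAT5 signalling, and, with negative sign, its transcriptional antagonist Bcl6 (-0.19, edgeR adjusted p = 0.0016). Agt, the precursor of angiotensin, had 0.22 (edgeR adjusted p = 0.0482) and Agtr1a, the angiotensin receptor, 0.13 (edgeR adjusted p = 0.0286). Trim55, a ubiquitin ligase of the sarcomere, had 0.07 (edgeR adjusted p = 0.0348). The Agt call was lost with marker covariates, without AXB19a/PgnJ and AXB19b/PgnJ, without CE/J and in each sex alone. That of Agtr1a was lost without CE/J and in females, and that of Trim55 with marker covariates, with library totals and in females. The Bcl6 call was lost in females and with limma on log2(TPM + 1) and log2(TPM + 0.1). These 5 were singled out after their values were seen. The predicted genes Gm10800, Gm10801, Gm10717, Gm10718 and Gm10719, also called, are near-identical copies within their groups, so the division of reads among them is uncertain.

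The markers of other cell types were not called in any list. Of the 5 adipose markers tested, Adipoq, Plin1, Cidec, Car3 and Cfd, none was called and 4 had an unadjusted p under 0.05, where 0.464% of all genes were called and 1522 of 15941 had such a p, and their coefficients were all negative, from -0.55 to -0.27. Their summed level ranged from 0.863 to 428.5 CPM over libraries. With the mean levels of atrial, blood and adipose markers as covariates, 67 of the 74 genes were still called, and Socs2 had 0.37 and Igfals 0.71. In bulk heart tissue, fewer cells of a type and less RNA per cell cannot be told apart.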

How the data were processed

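Heart RNA was purified with the Qiagen miRNeasy kit, and libraries were made with the Nugen Universal Plus mRNA kit. The authors quantified reads with kallisto 0.46 on GRCm38.p6 (per the submitters' processing notes) and deposited estimated counts and TPM per gene for all libraries. TPM divides by transcript length and is scaled to the same sum in each library, so that mitochondrial transcripts lower all others. How transcripts were summed to genes is not given in the sources used here.

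Tnni3k and the gene lists were chosen with earlier results of these data known, and the growth hormone and STAT5 list after seeing the values. Estimated counts were rounded. Genes were kept with filterByExpr by sex (15942), scaled by TMM and tested with edgeR 4.0.16 in R 4.3.3, with Benjamini-Hochberg adjustment over all of them. Alternatives used DESeq2 1.42.0 and limma 3.58.1 on log2(TPM + 1) and log2(TPM + 0.1). Log2 CPM used a prior count of 2. Intervals are 1.96 SE. Implied length was count divided by TPM, scaled per library over 9090 genes with at least 100 counts. The smallest library had 28990000 counts.

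Named genes were the neighbours within 500 kb, Tnni3, Fpgt, Lrrc53 (not analysed here), Gja1, Gja5, Myh6, Myh7, Tnnt2, Mapk14, Nppa, Nppb, the 10 genes of largest Spearman correlation, the 5 largest outside chromosome 3, and up to 4 members of each list by p. Some genes that this rule names are not reported here. Lists were conduction and ion channels, contractile, calcium handling, MAP kinase, cell division, cardiac stress, and markers of cardiomyocytes, atrium, blood, adipose tissue, skeletal muscle, endothelium and fibroblasts. Male and female libraries were paired by strain. Correlations between sexes used 100000 two-sided permutations. Tests were checked on simulated counts with 15942 genes. For the association, 55% of genes with a coefficient of 0.15 and 88% of those with 0.3 were recovered, with 2 false calls. For sex, 67% of genes with a change of 0.3 log2 were recovered, with 9 false calls. The simulated counts held no strain families or shared haplotypes, so these rates may not hold for the real data. GENCODE M21 held 35856 of the 36558 identifiers. Figures were drawn with matplotlib 3.10.9, and other steps used scipy 1.17.1, pandas 2.3.3, numpy 2.4.6 and Python 3.11.15. The association was refitted in 22 alternatives, 18 planned and 4 added after seeing the data.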

Additional observations from a re-analysis of the deposited data

Results flagged for a closer look

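BXH20/KccJ stood apart from the other BXH strains in Tnni3k. Its single male library had 18.9985 CPM, where the nearest of the other 5 strains, BXH22/KccJ, had 74.05 CPM. The gap was 0.696 of the whole range of the 6 strains, past Dixon's critical value of 0.625. The same library stood apart in TPM, at 11.2 against 31.01 in the nearest strain, and in implied length, at 1687 bases against 2789. The 3 values are of 1 library and share its counts. Chance picks out about 1 in 20 groups that follow a single normal distribution, a rate that does not apply to a gene with separate low and high ranges. C3H/HeJ, 1 of the parents of these strains, had 22.3 and 20.8 CPM, so the library was near the level of its low parent. The strain has no second library to compare with.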

How the results depend on the processing

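The direction and call of the strain effect, and the direction of the founder differences, held in all alternatives run, but most founder calls were lost in TPM. On log2(TPM + 1) the differences from C57BL/6J were -0.43 (DBA/2J), -0.46 (A/J) and -0.76 (BALB/cJ), none called by limma, with C3H/HeJ still called. On log2(TPM + 0.1) they were -0.44, -0.48, -0.79 and, for C3H/HeJ, -0.76, none called (limma adjusted p = 0.0635 to 0.344). The TPM fits differ from the others in length scaling, in a total that includes mitochondrial genes and in the test, and the part of each was not tested. Library totals alone, with no length scaling, gave -1.54 in DBA/2J and -1.78 in C3H/HeJ, both still called. The sex difference was -0.04 to 0.14 and uncalled in every alternative, the replicate block included (0.02). The association was refitted in 22 alternatives, of which 18 were planned and 4 were added after seeing the data (without the 4 libraries that stood apart, with each strain's library trend over transcript length as covariate, and without CE/J over all strains and over those nearer to C57BL/6J). CE/J was left out because its Cryz level stood out in the plot of strain means. Calls are given as shares of the genes tested, a form adopted after the counts were known, and were judged by their counts. From 0.464% (74 genes), they became 0.549% with no filter on low counts, where 31901 genes were tested and the count was 2.36 times 74, and 0.772% with DESeq2, 1.66 times 74. They were 1.41% without the family term (224 genes), 1.78% in males (283), 0.201% in females (32), 0.22% with male Tnni3k against female counts (35), 0.151% in BXD strains (24), 0.0188% in AXB/BXA strains (3), 0.151% in inbred strains (24), 0.138% in the strains nearer to C57BL/6J (22), 0.0878% in those nearer to DBA/2J (14), 2.32% on log2(TPM + 1) (370) and 10% on log2(TPM + 0.1) (1594). The single-family and single-cluster fits had fewer strains. For the others the cause was not tested. Log2(TPM) moved the median coefficient of all genes to 0.05 and 0.07, with 365 of 370 and 1580 of 1594 calls positive, against 61 of 74. Without CE/J, 90 genes were called over all strains, and the 22 of the strains nearer to C57BL/6J became 2 (0.0125%). The remaining alternatives, 8 with that without CE/J over all strains, gave counts within 1.5 times 74. The list members called, 1 in the main result, were 7 without the family term, 4 in males, 3 with female Tnni3k against male counts, 0 in AXB/BXA strains, 0 in inbred strains, 2 with marker covariates, 5 with DESeq2, 8 and 21 on the TPM scales, 2 without CE/J and 0 in the strains nearer to C57BL/6J without CE/J. The called genes among those named changed sign only within clusters, while uncalled ones also did so in other fits (Kcne1 to -0.37 in AXB/BXA strains, Cenpf to 0.0096 and Gja5 to 0.11 in BXD strains). In the strains nearer to C57BL/6J these were Cryz (0.89) and Tyw3 (-0.12), and without CE/J Cryz (0.0025), Tyw3 (-0.69), Socs2 (-0.19) and Klhdc8a (-0.084). In those nearer to DBA/2J they were Cryz (0.014) and Socs2 (-0.063). None of these passed the edgeR test. At the lowest count of Tnni3k, 286, counting error limits single libraries more than strain means.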

Other observations

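Genes of growth hormone and STAT5 signalling were looked at after Socs2, Igfals and Cish had been seen among the called genes, so the list is no independent evidence. Of its 18 members tested, 4 were called with a positive coefficient on Tnni3k (Socs2, Igfals, Cish and Akt1) and 1 with a negative one (Bcl6), against 0.464% of all genes. The list median was -0.01. The receptor and the transcription factors of the pathway were not among the called genes: Ghr had -0.04 (edgeR adjusted p = 0.199), Stat5a 0.01 (edgeR adjusted p = 0.939), Stat5b -0.00 (edgeR adjusted p = 0.987) and Jak2 -0.01 (edgeR adjusted p = 0.904). Igf1, the growth factor that growth hormone induces, had 0.01 (edgeR adjusted p = 0.931), and Socs3, another suppressor of cytokine signalling, had -0.03 (edgeR adjusted p = 0.816). Of the other targets and inhibitors on the list, Pim1 had -0.05 (edgeR adjusted p = 0.578), Socs1 -0.04 (edgeR adjusted p = 0.867) and Igfbp3 -0.01 (edgeR adjusted p = 0.973). No difference between kinds of members was tested.

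The AXB/BXA strains gave 3 called genes in a fit of their own, none of them among the 74, with 13 strains of which 2 were above the gap. In that fit 62 of the 74 genes had the same sign as over all strains, against 73 of 74 in the BXD strains and 74 of 74 in the inbred strains. These families, with 13, 34 and 24 strains, were part of the 78 strains from which the 74 genes were called. Agreement of sign was therefore partly fixed in advance, and it is no independent evidence for any family.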
